A study of Mus musculus with 16 samples.

Results

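The heavy-chain variable genes (Ighv genes) were followed in abdominal tumors of 615-line mice, as their summed level, the number detected and the share of the highest gene in each tumor. Members were all genes whose GENCODE M21 symbol starts with Ighv and that had at least 1 count over the 16 tumors, which gave 96 genes of the 22298 in the count files. Another 19 of the 115 Ighv genes in the files had 0 counts in every tumor. Wild-type, sex-matched mice of 6 weeks of age had received 500000 MFC cells, a murine gastric cancer line that grows in this strain, into the peritoneal cavity. The vehicle group (8 tumors) was given PBS and the IL-33 treatment group (8 tumors) IL-33 at 20 μg/kg, both into the peritoneal cavity every 2 days. IL-33 belongs to the IL-1 cytokines and is released by damaged cells as an alarm signal. The number of mice behind the 8 sequenced tumors of a group is not given, but the methods describe fewer mice per group for this tumor model, so that some tumors may share an animal. The p-values measure the spread between these tumors and would then be too small.

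Each B cell builds the variable part of its antibody heavy chain by joining a variable (V), a diversity (D) and a joining (J) segment with the Rag recombinase, and its daughter cells keep that junction as a clone. Plasma cells, the end stage of the lineage, secrete antibody and carry far more immunoglobulin mRNA than resting B cells. The peritoneal cavity also holds B-1 cells, a self-renewing lineage with a restricted set of V genes. Counts per gene hold no junction sequence, so that many clones can share a V gene, and the share of a gene is not the share of a clone. In bulk tumors, more cells of a type and more RNA per cell cannot be told apart.

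The 96 members lay on the minus strand of chromosome 12 between positions 113578504 and 116000461 of GRCm38, and none was annotated as a pseudogene. They fell into 14 families, of which Ighv1 was the largest with 50 genes, and their annotated exons covered 347 to 480 bases (median 353). The V regions of the 7 genes below are shown, and each of these genes led the counts of at least 1 tumor. Other genes that led a tumor are left out, so these V regions are examples. Each is the reference sequence of the second exon from its first coding base after the leader, read on the minus strand (GRCm38, GENCODE M21), and the capitals mark the bases from the conserved cysteine codon to the end of the segment, where the junction to D begins.
Ighv1-5: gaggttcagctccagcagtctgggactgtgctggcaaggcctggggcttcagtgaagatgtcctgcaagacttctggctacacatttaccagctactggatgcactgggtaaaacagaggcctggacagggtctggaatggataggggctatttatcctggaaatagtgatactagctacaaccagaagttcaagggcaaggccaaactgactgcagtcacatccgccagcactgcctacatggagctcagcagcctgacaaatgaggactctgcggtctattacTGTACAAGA
Ighv1-26: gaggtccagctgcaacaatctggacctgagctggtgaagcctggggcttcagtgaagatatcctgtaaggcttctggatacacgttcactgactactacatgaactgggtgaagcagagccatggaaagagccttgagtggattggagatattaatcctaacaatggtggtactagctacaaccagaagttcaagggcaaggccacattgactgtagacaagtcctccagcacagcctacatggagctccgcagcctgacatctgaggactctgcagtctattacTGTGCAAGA
Ighv1-50: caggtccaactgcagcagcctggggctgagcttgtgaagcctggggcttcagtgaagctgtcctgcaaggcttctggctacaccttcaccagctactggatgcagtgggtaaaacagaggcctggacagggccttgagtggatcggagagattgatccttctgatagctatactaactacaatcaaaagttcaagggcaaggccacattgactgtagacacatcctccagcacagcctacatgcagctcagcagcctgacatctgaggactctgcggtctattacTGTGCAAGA
Ighv1-64: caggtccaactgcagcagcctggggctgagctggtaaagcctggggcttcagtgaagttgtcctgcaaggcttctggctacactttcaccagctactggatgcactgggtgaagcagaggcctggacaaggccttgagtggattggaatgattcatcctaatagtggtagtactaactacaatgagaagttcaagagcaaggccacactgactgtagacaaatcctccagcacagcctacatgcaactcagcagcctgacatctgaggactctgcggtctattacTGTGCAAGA
Ighv1-72: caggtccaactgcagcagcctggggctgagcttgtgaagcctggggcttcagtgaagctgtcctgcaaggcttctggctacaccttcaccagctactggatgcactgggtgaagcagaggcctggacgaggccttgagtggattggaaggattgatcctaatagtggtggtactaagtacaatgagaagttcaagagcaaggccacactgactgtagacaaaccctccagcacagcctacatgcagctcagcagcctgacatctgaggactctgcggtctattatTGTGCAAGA
Ighv5-17: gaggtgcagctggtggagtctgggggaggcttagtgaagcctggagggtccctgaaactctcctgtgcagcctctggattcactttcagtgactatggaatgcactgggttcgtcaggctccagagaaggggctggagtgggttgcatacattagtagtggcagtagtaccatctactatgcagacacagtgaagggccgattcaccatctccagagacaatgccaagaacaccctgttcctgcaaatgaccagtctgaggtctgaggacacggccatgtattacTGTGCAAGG
Ighv11-2: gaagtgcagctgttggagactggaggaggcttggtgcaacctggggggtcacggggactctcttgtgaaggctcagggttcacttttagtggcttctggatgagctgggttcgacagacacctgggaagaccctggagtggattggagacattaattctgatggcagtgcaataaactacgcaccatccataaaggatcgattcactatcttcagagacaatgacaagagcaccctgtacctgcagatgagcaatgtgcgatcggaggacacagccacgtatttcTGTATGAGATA
The stretch in capitals was TGTGCAAGA in Ighv1-26, Ighv1-50, Ighv1-64 and Ighv1-72, and TGTACAAGA in Ighv1-5. Ighv1-64 and Ighv1-72 differed at 12 bases (95.9% identity), and Ighv1-5 was 82.0% to 85.4% identical to the other 4 genes of its family shown. Ighv11-2 was 74.3% identical to Ighv5-17 and 59.5% to 62.2% to the 5 genes of the Ighv1 family. Over all 96 members the median identity to the nearest other member was 95.2%, and 51 members were at least 95% identical to another. Ighv1-72 and Ighv1-62-3 differed at 2 bases, and 42.8% of the 100-base windows of Ighv1-72 also occurred in another Ighv transcript. Values of single genes are therefore uncertain where reads of near-identical copies could be divided, and the effect of strain differences between 615-line mice and the reference genome, and of somatic mutation, was not tested.

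Total counts lay between 14139268 and 24290794 per tumor. No pair of tumors within a group was a repeat of 1 library, since even the closest pair had a chi-square of 8.79 for each degree of freedom over the genes. The TMM scaling factor was 0.640 in vehicle tumor 4, 1.24 in IL-33 tumor 7 and 0.895 to 1.10 in the other tumors. A list of 8 uterus and oviduct genes summed to 1555 CPM (counts per 1000000 counts of the tumor) in IL-33 tumor 7 and to at most 23.2 CPM elsewhere. The 5 epithelial genes Epcam, Cdh1, Krt8, Krt18 and Krt19 summed to between 236 and 1546 CPM, the highest in vehicle tumor 4. Nearly all of it was Krt8 and Krt19 except in IL-33 tumor 7, where the sum of 797 CPM included 104 CPM of Cdh1. Epcam and Krt18, which define most epithelia, reached at most 0.642 and 1.83 CPM in the vehicle group, and their only high values were 98.8 and 159 CPM in IL-33 tumor 7.

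Ighv reads were a small part of each library, and their level spread over more than 100-fold among tumors of the same treatment. The members held 17987 counts over the 16 tumors, 2516 in the vehicle group and 15471 in the IL-33 treatment group, and 62.6% of them came from IL-33 tumors 4 and 8. In the vehicle group the summed level was 0.495 CPM in tumor 4, 1.04 in tumor 1, 3.27 in tumor 6, 3.81 in tumor 5, 7.57 in tumor 8, 10.1 in tumor 7, 46.3 in tumor 3 and 66.3 in tumor 2. In the IL-33 treatment group it was 1.19 CPM in tumor 6, 4.10 in tumor 2, 10.9 in tumor 1, 26.3 in tumor 3, 76.3 in tumor 5, 114.5 in tumor 7, 242.6 in tumor 8 and 313.7 in tumor 4. The groups overlapped, and 4 IL-33 tumors lay above every vehicle tumor while IL-33 tumors 2 and 6 lay below the vehicle median of 5.69 CPM. On the log2(CPM + 0.5) scale the summed level was 2.83 ± 2.15 (SD, n = 8) in vehicle tumors and 5.07 ± 2.74 (SD, n = 8) in IL-33 tumors. The difference of 2.23 did not pass the two-sided exact permutation test over the tumors (p = 0.0901, adjusted p = 0.315 over 7 tests). Leaving out IL-33 tumor 6 gave 2.85 (exact permutation p = 0.0298) and leaving out vehicle tumor 2 gave 2.70 (exact permutation p = 0.0497), whereas without IL-33 tumor 4 it was 1.77 (exact permutation p = 0.168). Without vehicle tumor 4 and IL-33 tumor 7, a choice made after the data had been seen, it was 1.57 (exact permutation p = 0.245).

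**Figure D1:**
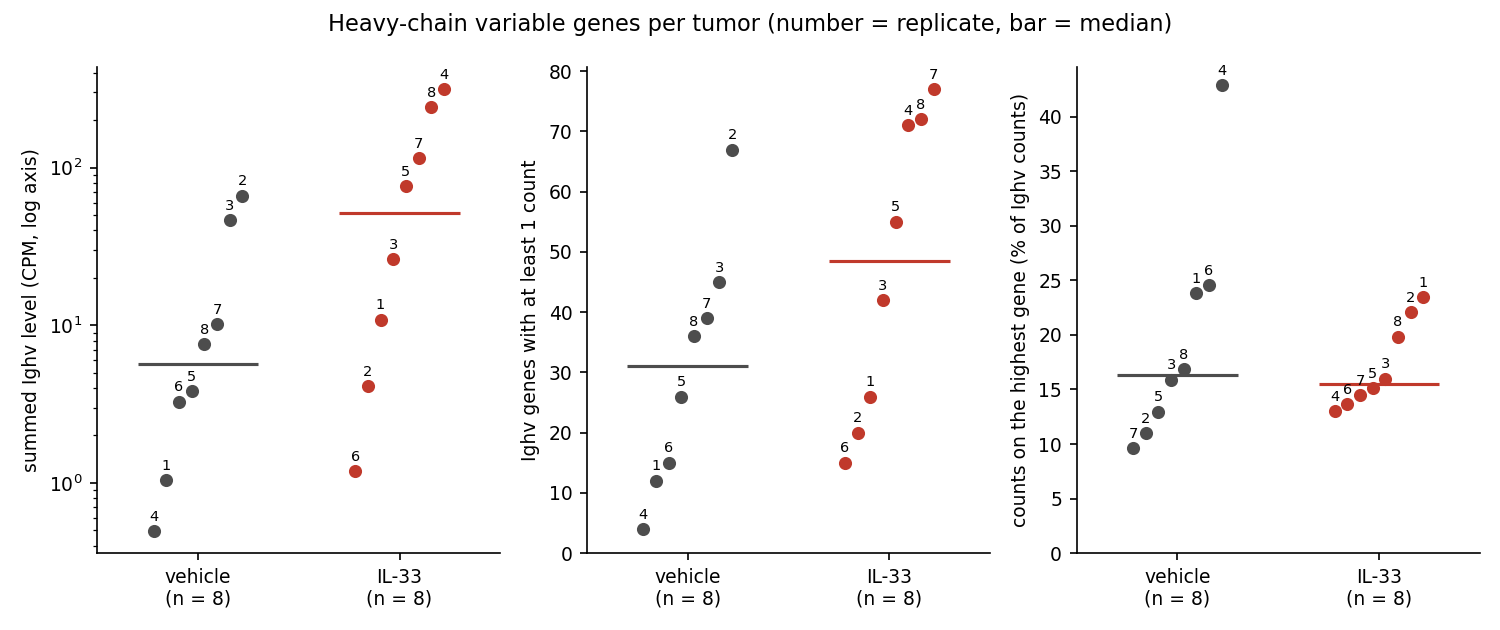
Summed Ighv level in CPM on a log axis, number of Ighv genes with at least 1 count, and percent of Ighv counts on the highest gene, for 8 vehicle and 8 IL-33 tumors (points, numbered by replicate; bars are medians). The summed level spans 0.495 to 66.3 CPM in vehicle and 1.19 to 313.7 CPM in IL-33 tumors, and vehicle tumor 4, with 7 Ighv counts, stands apart in the share of its highest gene.

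The number of members detected followed the number of Ighv reads. Vehicle tumors had 4 to 67 genes (median 31) and IL-33 tumors 15 to 77 (median 48.5), and the means differed by 16.8 genes (exact permutation test, p = 0.167, adjusted p = 0.389 over 7 tests). When 20 Ighv reads were taken from each tumor, the expected number of genes was 12.4 ± 1.78 (SD, n = 7) for vehicle and 11.9 ± 1.58 (SD, n = 8) for IL-33 tumors. This difference of -0.44 genes was small beside the spread (exact permutation test, p = 0.613), and vehicle tumor 4 was left out of it because it had only 7 Ighv counts. No member was seen in all 16 tumors. Ighv1-19, Ighv1-34, Ighv1-50 and Ighv1-64 reached 14 tumors, and 17 members were seen in a single tumor.

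No tumor had most of its Ighv reads on a single gene. The highest gene held between 9.60% and 24.5% of the Ighv counts in 15 tumors and 42.9% in vehicle tumor 4, where it rested on 3 of 7 counts (95% Wilson interval 15.8% to 75.0%, which covers counting error only, as do all such intervals here). The mean was 19.7% ± 10.8 (SD, n = 8) for vehicle and 17.2% ± 4.02 (SD, n = 8) for IL-33 tumors, which is -2.50 points apart (exact permutation test, p = 0.629). The sign of this difference rested on vehicle tumor 4, since without it the share was 0.81 points higher under IL-33 (exact permutation test, p = 0.753). Among the 10 tumors with at least 100 Ighv counts, the highest gene held 13.3% ± 3.57 (SD, n = 4) in vehicle and 17.0% ± 3.91 (SD, n = 6) in IL-33 tumors, with p = 0.167 in the exact permutation test. The chance that 2 Ighv reads of a tumor fell on the same gene, which does not depend on how many reads there were, was 8.51% ± 4.98 (SD, n = 8) in vehicle and 7.51% ± 2.37 (SD, n = 8) in IL-33 tumors (exact permutation test, p = 0.668). Adjusted over the 7 tests, the p-values of these shares and of the rarefied number were 0.668 each. Its inverse, the effective number of equally used genes, lay between 9.73 and 23.9 in the 10 tumors with at least 100 Ighv counts. These tumors needed between 4 and 10 genes to reach 50% of their Ighv counts, the most in IL-33 tumor 7.

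**Figure D2:**
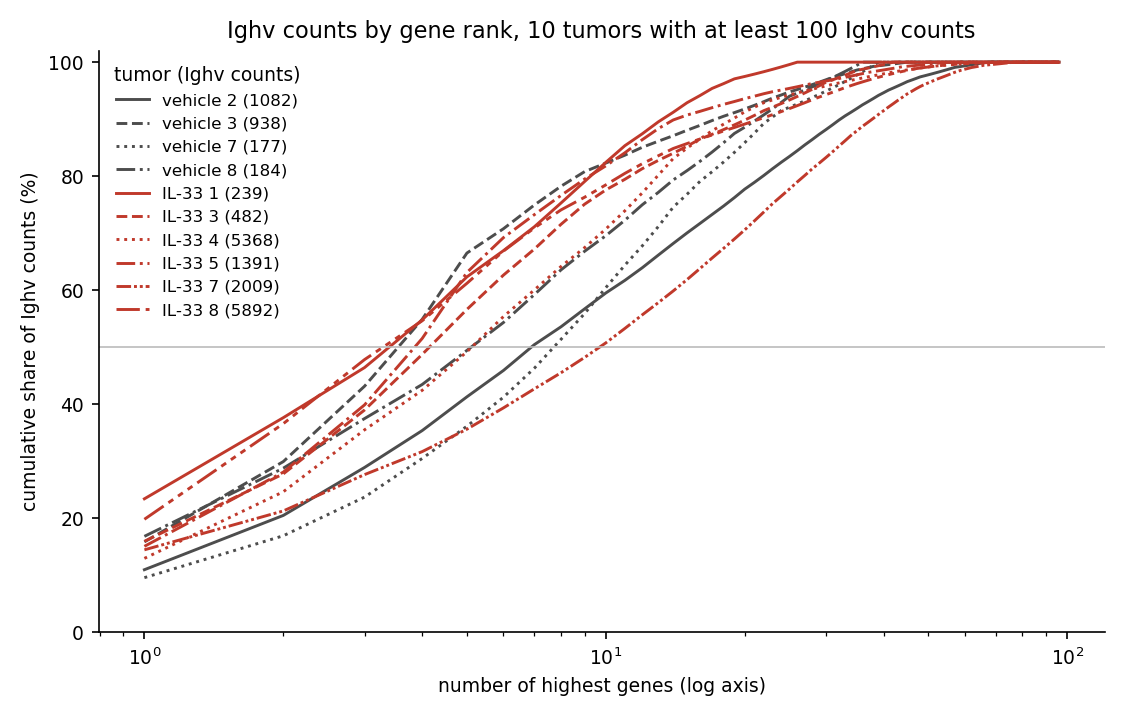
Cumulative percent of Ighv counts (vertical axis) over the highest genes of a tumor (horizontal axis, log scale) for the 10 tumors with at least 100 Ighv counts. The curves of vehicle (grey) and IL-33 (red) tumors interleave, and the 50% line is crossed between 4 and 10 genes.

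The gene that led differed from tumor to tumor, and 13 genes were the highest in at least 1 tumor. Among IL-33 tumors with many Ighv reads, Ighv1-64 led in tumor 8 with 1169 of 5892 counts (19.8%, 95% Wilson interval 18.8% to 20.9%), followed by Ighv1-50 with 16.8%. Ighv1-5 led in tumor 4 with 697 of 5368 counts (13.0%, 95% Wilson interval 12.1% to 13.9%), followed by Ighv3-8 with 11.7%. Tumor 7 was led by Ighv1-72, a gene known from the antibody response to nitrophenyl haptens, with 291 of 2009 counts (14.5%), and tumor 5 by Ighv14-4 with 210 of 1391 counts (15.1%). Ighv1-9 led tumor 3 of this group with 77 of 482 counts. In the vehicle group, Ighv11-2 led tumor 2 with 119 of 1082 counts. This gene is typical of B-1 cells, where it takes part in antibodies to phosphatidylcholine. Ighv5-17 led vehicle tumor 3 with 149 of 938 counts (15.9%), ahead of Ighv8-8 with 14.1%. Vehicle tumors 7 and 8, with 177 and 184 Ighv counts, were led by Ighv3-8 (9.60%) and Ighv1-50 (16.8%). Shares are of counts. Per kilobase of annotated exon the highest gene was the same or tied in 14 of the 16 tumors, the exceptions being vehicle tumors 2 and 3, which were then led by Ighv1-26 and Ighv8-8.

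IL-33 tumors 1 and 2 stood out by using nearly the same genes. Both were led by Ighv1-26, with 56 of 239 counts (23.4%) and 15 of 68 counts (22.1%), and they shared all 5 of their highest genes, the others being Ighv1-39, Ighv6-3, Ighv1-5 and Ighv1-64. The Ighv6 family held 8.79% and 8.82% of their Ighv counts and at most 1.34% in any other tumor. On the Morisita-Horn measure, where 100% stands for identical use, they overlapped by 92.6%, the highest of the 78 pairs among the 13 tumors with at least 50 Ighv counts. The next pair reached 76.8% (vehicle tumor 6 and IL-33 tumor 8) and the median pair 40.8%. Of the heavy-chain constant counts, 84.1% and 77.2% were Ighg1 in these tumors. They were not a repeat of 1 library, since their counts over all genes gave a chi-square of 22.8 per degree of freedom. This pair was picked after its values had been seen, and whether both tumors came from the same mouse is not given in the sources used here.

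Among the tumors with at least 100 Ighv counts, which leave out IL-33 tumor 2, the overlap in gene use covered much the same range within and between groups. It lay between 22.7% and 55.7% within the vehicle group (median 35.8%, 6 pairs), between 19.3% and 58.0% within IL-33 tumors (median 37.4%, 15 pairs) and between 17.8% and 57.2% between groups (median 38.2%, 24 pairs). Pairs share tumors and were not tested. Ighv1-26 was the only gene among the 10 highest of all these 10 tumors. Ighv1-50 was among the 10 highest in 7 of them, Ighv1-5 in 6, and Ighv1-64 and Ighv1-34 in 5.

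Of the 7 values compared per tumor, the share of the Ighv1 family had the smallest p. Genes of the Ighv1 family, which fill the middle and far parts of the locus seen from the D genes, held 60.8% ± 12.2 (SD, n = 8) of the Ighv counts in vehicle and 76.2% ± 6.73 (SD, n = 8) in IL-33 tumors. Vehicle tumors lay at 42.9% (tumor 4), 53.4% (3), 56.0% (8), 57.1% (1), 60.5% (7), 65.0% (2), 66.7% (5) and 84.9% (6), and IL-33 tumors at 66.8% (tumor 7), 67.9% (4), 72.0% (5), 74.8% (8), 80.5% (3), 80.9% (2), 81.8% (6) and 84.5% (1). All 8 IL-33 tumors exceeded the vehicle mean, and the only vehicle tumor above the lowest IL-33 tumor was number 6, with 53 Ighv counts. The difference of 15.4 points had p = 0.00932 in the exact permutation test, and adjusted over the 7 tests it missed the threshold (adjusted p = 0.0653). Leaving out each tumor in turn gave 12.8 to 18.8 points with exact permutation p between 0.000311 and 0.0185. In the 10 tumors with at least 100 Ighv counts the 6 IL-33 tumors (66.8% to 84.5%) all lay above the 4 vehicle tumors (53.4% to 65.0%). The exact permutation test over these 10 tumors gave p = 0.00952, the smallest it can give for 6 against 4 tumors, so it only restates that separation. Counting IL-33 tumors 1 and 2 as 1 sample gave 14.4 points (exact permutation test, p = 0.0177), an alternative chosen after the data had been seen.

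**Figure D3:**
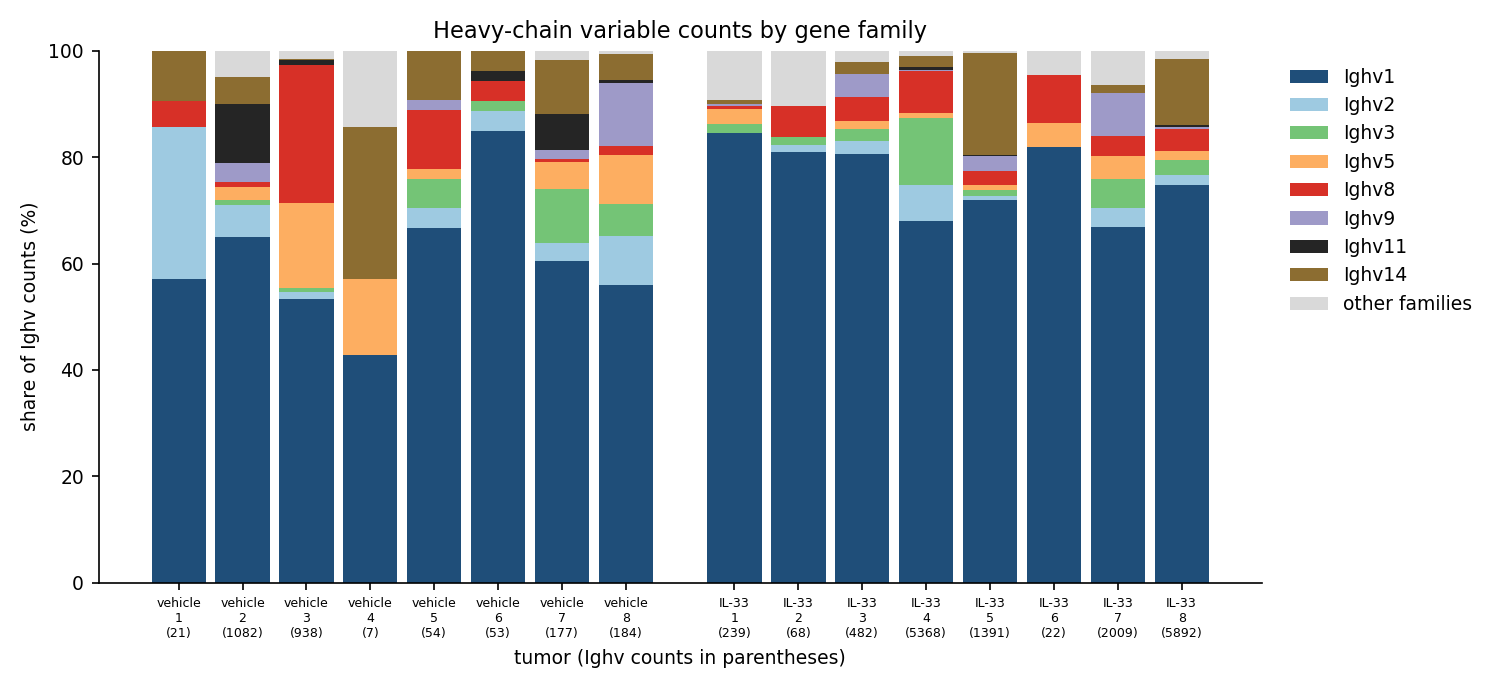
Percent of Ighv counts (vertical axis) on each Ighv family in the 8 vehicle and 8 IL-33 tumors, with the number of Ighv counts of each tumor in parentheses. Ighv1 (dark blue) makes up 42.9% to 84.9% in vehicle tumors and 66.8% to 84.5% in IL-33 tumors.

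The other families are given without a test, over the tumors with at least 100 Ighv counts. Ighv5 held 8.13% ± 5.90 (SD, n = 4) of Ighv counts in vehicle and 2.05% ± 1.33 (SD, n = 6) in IL-33 tumors, and the groups overlapped. Ighv11, whose only member is Ighv11-2, had a mean share of 4.82% ± 5.01 (SD, n = 4) in vehicle and 0.179% ± 0.229 (SD, n = 6) in IL-33 tumors, and the lowest vehicle share, 0.543%, was 1 of 184 counts beside 27 of 5368 in IL-33 tumor 4. Among vehicle tumors with fewer Ighv counts, numbers 1, 4 and 5 had 0 counts of it. Its highest shares came from vehicle tumors 2 (119 of 1082 counts) and 7 (12 of 177 counts). Ighv8 reached 25.9% in vehicle tumor 3 and 7.90% at most in the IL-33 tumors, and Ighv14 reached 19.1% in IL-33 tumor 5 and 12.3% in IL-33 tumor 8. The locus was also divided by position into runs of 32 members. The 32 genes nearest the D segments, none of them Ighv1, held 28.9% ± 7.36 (SD, n = 4) in vehicle and 15.7% ± 7.03 (SD, n = 6) in IL-33 tumors. The 32 genes in the middle, 22 of them Ighv1, held 23.0% ± 10.3 (SD, n = 4) and 44.1% ± 21.3 (SD, n = 6), with 71.6% in IL-33 tumor 1 as the highest. The 32 far genes, 28 of them Ighv1, held 48.0% ± 11.6 (SD, n = 4) and 40.2% ± 16.1 (SD, n = 6).

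Each member was also compared on its own. Of the 96 members, 68 had at least 10 counts over the 16 tumors and were tested with edgeR among 16817 genes, and 28 were too low. The fitted change was above 0 in 59 (86.8%, against 58.3% of all genes tested) and below 0 in 9 of the 68, with a median log2 fold change of 2.24 against 0.06 over all genes tested. An unadjusted p under 0.05 with a higher level in the IL-33 treatment group was found for 30 of the 68 members (44.1%), where 9.99% of all genes tested met the same rule. None of the 68 was lower at that threshold, against 1.17% of all genes. With Benjamini-Hochberg adjustment over all genes, 0 members and 0 genes passed 0.05, the smallest adjusted p being 0.418, where 0% of all genes did. DESeq2 also gave 0 members after adjustment, and before it 21 of 68 higher (2.52% of all genes) and 0 lower (1.59%). A gene could pass the minimum of 10 counts through a single high tumor, so the count of 30 is a description and not evidence on the family. Without IL-33 tumor 7, 29 of 63 members met the rule against 1.83% of all genes, and 26 of the 30 were among them, while 2 were lower (2.29% of all genes). Without IL-33 tumor 4, the number was 18 of 63 (10.6% of all genes), all among the 30, and without vehicle tumor 2 it was 40 of 65 (9.17% of all genes). Without both vehicle tumor 4 and IL-33 tumor 7, it was 23 of 63 (2.1% of all genes), with 2 lower (2.09%). The stricter filter of edgeR's filterByExpr left only 2 members, both higher (3.9% of all genes), and the replicate number as a block gave 11 of 68 (1.46%). Of the 96 members, 64 had their highest CPM in IL-33 tumor 7 (25 members), 4 (22) or 8 (17), and 18 in a vehicle tumor. How often other genes had their highest CPM in these tumors was not computed, so this is not a trait particular to the members.

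**Figure D4:**
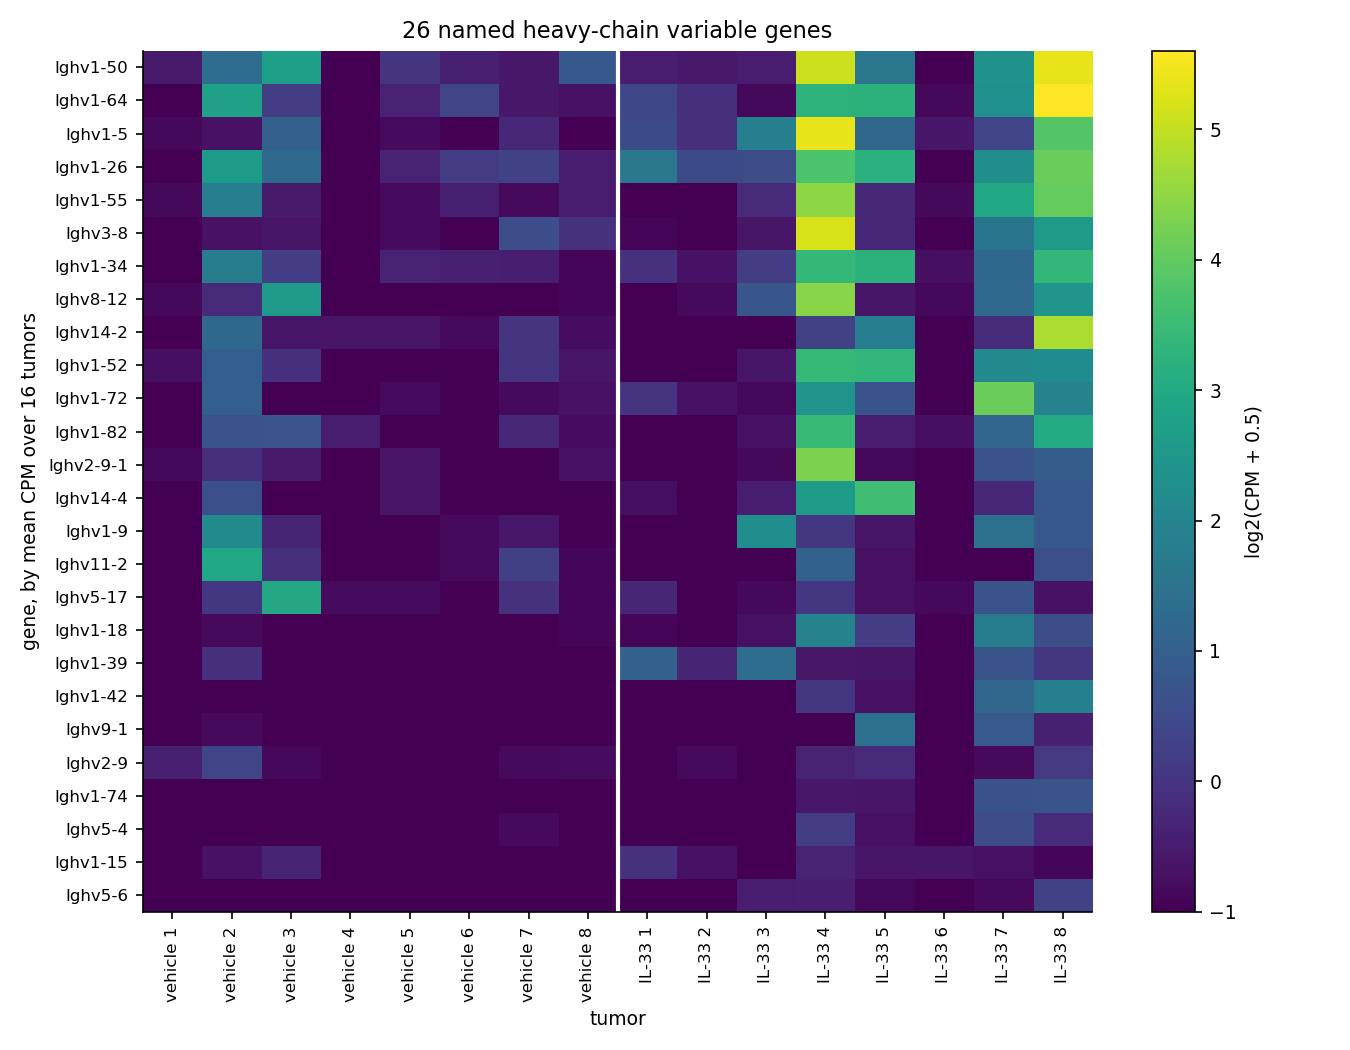
Level of the 26 named Ighv genes as log2(CPM + 0.5) (color), with genes in rows by their mean CPM over 16 tumors and tumors in columns, vehicle left and IL-33 right of the white line. IL-33 tumors 4, 7 and 8 carry most of the high values, Ighv11-2 is highest in vehicle tumor 2, and Ighv5-17 in vehicle tumor 3.

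Of the 30 members that met the rule, 17 belonged to Ighv1, of which 38 were tested. Ighv1-5 had 41 counts in the vehicle group and 1163 in the IL-33 treatment group. Its level lay between 0 and 1.53 CPM in the vehicle group (median 0.0600) and from 0.162 to 40.7 CPM in IL-33 tumors (median 1.33). It was detected in 5 of the 8 vehicle and all 8 IL-33 tumors, the groups overlapped, and 57.9% of its counts came from IL-33 tumor 4. The log2 fold change was 4.70 (SE 1.28, adjusted p = 0.418 from edgeR) but 3.40 without IL-33 tumor 4 and 6.34 without vehicle tumor 3. Ighv1-39 was seen in fewer tumors but rested less on a single tumor, with 30.9% of its counts from IL-33 tumor 3. It had 7 counts in the vehicle group, all in tumor 2 at 0.429 CPM, and was detected in 7 of 8 IL-33 tumors at up to 2.08 CPM (tumor 3), with a median of 0.419 CPM. IL-33 tumors 1, 3, 7 and 8 lay above every vehicle tumor, and the fitted log2 fold change of 3.62 (SE 1.22, adjusted p = 0.418 from edgeR) became 3.16 without IL-33 tumor 3 and 6.74 without vehicle tumor 2.

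Several members that were named for their small edgeR p were almost absent from the vehicle group. Ighv1-18 had 2 counts there, in tumors 2 and 8, and 148 counts in 6 IL-33 tumors, with 3.39 CPM in tumor 4, 2.91 in tumor 7, 0.988 in tumor 8, 0.658 in tumor 5, 0.109 in tumor 3 and 0.0454 in tumor 1. Ighv1-42 had 0 counts in the vehicle group and 117 in IL-33 tumors 4, 5, 7 and 8, at 0.526, 0.110, 1.77 and 3.09 CPM. Its mean was at least 3.97-fold higher than vehicle tumors with 3 counts each would have. Ighv1-74 also had 0 vehicle counts, and its 53 counts came from the same 4 IL-33 tumors, at least 1.86-fold higher on the same floor. Ighv9-1 (1 vehicle count), Ighv5-4 (1 vehicle count) and Ighv5-6 (0 vehicle counts) had 69, 38 and 28 counts in 3, 4 and 5 IL-33 tumors. For Ighv5-6 the mean of the IL-33 treatment group lay under the floor, so no fold is given. All 6 had 0 counts in IL-33 tumors 2 and 6, which were also low in summed Ighv level. Near-absence from the vehicle group is partly how these 6 were picked, since it favors a small p. The IL-33 treatment group also held more Ighv counts, 15471 against 2516 in the vehicle group. Of the 96 members, 21 were seen only in IL-33 tumors and 5 only in vehicle tumors. Several of the 21, such as Ighv5-2 and Ighv8-4, had 1 count, and none of the 5 had more than 2. The share of all genes seen in a single group was not computed, so these numbers only describe the members. Whether the 6 genes changed beyond the summed Ighv level was not tested.

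The most abundant members depended on few tumors. Ighv1-50 held the most counts of all members, 10.7% of all Ighv counts, with 207 in the vehicle group and 1711 in IL-33 tumors. Vehicle tumors reached 6.12 CPM (tumor 3) and the IL-33 tumors 34.1 CPM (tumor 4) and 40.7 CPM (tumor 8), but 5 of the 8 IL-33 tumors lay below 3 CPM. The fitted change on the log2 scale was 2.86 (SE 1.30, edgeR adjusted p = 0.426), or 2.07 when IL-33 tumor 8 was left out. Ighv1-64 rested on IL-33 tumor 8 for 67.4% of its counts, at 48.1 CPM, and its log2 fold change of 3.07 was 1.68 without that tumor. Ighv3-8 had 74.2% and Ighv2-9-1 81.7% of their counts in IL-33 tumor 4, and their log2 fold changes of 4.50 and 4.35 were 2.32 and 1.53 without it. Ighv14-2 had 84.2% of its counts in IL-33 tumor 8, at 27.3 CPM, and its log2 fold change was 3.34 with and 0.71 without that tumor. Ighv1-72 was present in 4 vehicle tumors at up to 1.47 CPM and in 7 IL-33 tumors at up to 16.6 CPM (tumor 7), with a log2 fold change of 3.76 and of 2.69 without tumor 7. Ighv1-26, Ighv1-34, Ighv1-52, Ighv1-55 and Ighv1-82 had log2 fold changes of 2.29, 2.81, 3.33, 3.45 and 2.63, of which Ighv1-26 and Ighv1-82 did not meet the rule (adjusted p = 0.446 and 0.493 from edgeR). Ighv14-4 had a log2 fold change of 4.01, which was 2.76 and no longer met the rule without IL-33 tumor 5, and 6.61 without vehicle tumor 2. Ighv8-12 was at 2.20 and did not meet the rule, but was at 0.58 without IL-33 tumor 4 and at 5.57, meeting it, without vehicle tumor 3. Ighv1-15 (1.52), Ighv1-9 (0.87) and Ighv2-9 (0.14) did not meet the rule either. Without the tumor named beside each, the call was lost for Ighv1-50, Ighv1-64, Ighv3-8, Ighv2-9-1 and Ighv14-2. It was also lost for Ighv1-55 without IL-33 tumor 4 (2.71) and for Ighv1-52 without IL-33 tumor 5 (2.81). Other single tumors mattered as well for some of these genes. Of the 16 fits leaving out a single tumor, 7 kept the call for Ighv1-50, 8 for Ighv14-2 and 11 for Ighv1-64. The number was 14 for Ighv1-52 and Ighv1-55, and 15 for Ighv3-8 and Ighv2-9-1.

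Ighv11-2 and Ighv5-17 had fitted changes below 0, and each rested on the vehicle tumor that it led. Ighv11-2 had 7.30 CPM in vehicle tumor 2, 0.686 in tumor 7, 0.445 in tumor 3 and at most 0.0617 in the other 5, and in the IL-33 treatment group 1.58 CPM in tumor 4, 1.03 in tumor 8, 0.110 in tumor 5 and 0 in the other 5. Its log2 fold change was -1.65 (SE 1.49, adjusted p = 0.741 from edgeR) but 0.87 without vehicle tumor 2 and 0.95 with DESeq2. Ighv5-17 had 7.36 CPM in vehicle tumor 3 and at most 0.552 in the other vehicle tumors, against up to 1.14 CPM in IL-33 tumors. The fitted change of -1.99 on the log2 scale (SE 1.23, adjusted p = 0.591 from edgeR) became 0.61 without vehicle tumor 3 and 0.67 with DESeq2. Without IL-33 tumor 7, Ighv5-17 and Ighv1-58 were lower at unadjusted p under 0.05. Ighv1-58, named after its values were seen, had 109 of its 120 counts in vehicle tumor 3.

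The heavy-chain constant genes, which encode the antibody class, gave a second reading of the same mRNA. Their summed level spanned 10.4 to 701 CPM in vehicle (median 61.6) and 6.17 to 1162 CPM in IL-33 tumors (median 439). Of the 8 genes, Ighg2c, Ighg3 and Igha were higher at unadjusted p under 0.05, with log2 fold changes of 3.09, 2.96 and 3.14 (adjusted p = 0.418 each from edgeR), and none was lower. Of all genes tested, 9.99% were higher and 1.17% lower at that threshold. Ighm changed by 0.30 and Ighg1 by 0.75, and neither met the rule. The Igha value rested on IL-33 tumor 7, where Igha made up 74.2% of the constant counts, and was 1.08 without it, and Ighg3 fell short of the rule without IL-33 tumor 4 (2.17). Ighv reads per constant read lay between 0.0603 and 0.326 in 15 tumors and at 0.00821 in vehicle tumor 4, which had 7 Ighv counts beside 853 constant counts. The light-chain variable genes of the Igkv type summed to 4.17 CPM in that tumor and to 4.63 CPM in vehicle tumor 6, whose summed Ighv level was 3.27 CPM. The log2 ratio was -3.55 ± 1.36 (SD, n = 8) in vehicle and -2.85 ± 0.89 (SD, n = 8) in IL-33 tumors, which is 0.70 apart (exact permutation test, p = 0.262, adjusted p = 0.459 over 7 tests), or 0.24 without vehicle tumor 4. The highest ratios, 0.326 and 0.270, belonged to IL-33 tumors 8 and 4, whose largest constant shares were Ighg2c (29.1%) and Ighg3 (24.4%).

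The summed Ighv level moved with plasma cell genes across the tumors. A list of 14 plasma cell genes without immunoglobulin V or constant genes was averaged as log2(CPM + 0.5), and Pearson's r with the Ighv level was 0.963 over 16 tumors (permutation test, p = 1e-05, the smallest that 100000 permutations can give, adjusted p = 2e-05 over 2 relations) and Spearman's rho 0.971. It was 0.916 within the vehicle group (exact permutation test, p = 0.000273) and 0.993 within IL-33 tumors (exact permutation test, p = 2.48e-05), and 0.942 without IL-33 tumors 4 and 8, the farthest from the median. For 14 B cell genes r was 0.818 over 16 tumors (permutation test, p = 7e-05) and rho 0.829. Within the vehicle group r was 0.664 (exact permutation test, p = 0.0335) and rho 0.714 (exact permutation test, p = 0.0576). Within IL-33 tumors r was 0.945 (exact permutation test, p = 0.000918). Over the tumors other than vehicle tumor 2 and IL-33 tumor 4, r was 0.833. Vehicle tumor 2 had the highest B cell level of all tumors, and IL-33 tumor 4 the highest plasma cell level.

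**Figure D5:**
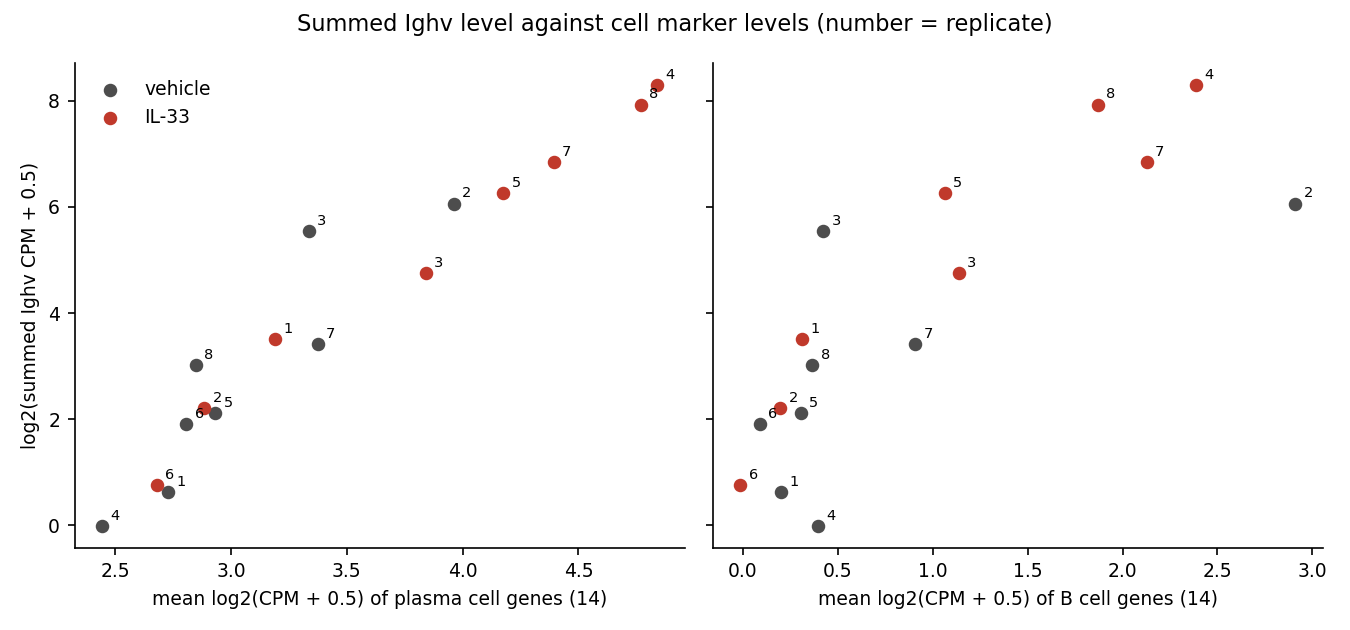
Summed Ighv level as log2(CPM + 0.5) (vertical axes) against the mean log2(CPM + 0.5) of 14 plasma cell genes (left) and 14 B cell genes (right) in 8 vehicle (grey) and 8 IL-33 (red) tumors, numbered by replicate. The points follow the plasma cell genes closely (r = 0.963), and vehicle tumor 2 lies to the far right for the B cell genes.

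Of the 14 plasma cell genes, Mzb1, Jchain, Irf4, Derl3, Pou2af1 and Eaf2 were higher at unadjusted p under 0.05 and none was lower. At that threshold 9.99% of all genes tested were higher and 1.17% lower, so that 0 calls in short lists such as those below say little. The call was lost for Eaf2 without IL-33 tumor 8. Jchain, which links antibody chains of IgM and IgA, had a median of 4.24 CPM in vehicle and 63.8 CPM in IL-33 tumors (log2 fold change 2.65, SE 1.05, adjusted p = 0.418 from edgeR). Sdc1, Xbp1, Txndc5 and Fkbp11, which epithelial cells also express, ranged from -0.35 to 0.25 in log2 fold change and did not meet the rule. Prdm1 (0.27), Tnfrsf17 (1.36), Tnfrsf13b (0.61) and Ell2 (0.04) did not meet the rule either. None of the 14 B cell genes met it in either direction, with a median log2 fold change of 0.19. Rag1 and Rag2, the recombinase, and Vpreb2 and Igll1 of the surrogate light chain had 0 counts in all tumors, so that their RNA was not detectable at this depth. Of the 5 tested genes of the recombination, mutation and switching list, only Dntt was higher at unadjusted p under 0.05. This gene, which adds bases at the junctions, had 7 counts in vehicle and 35 in IL-33 tumors. Its call was lost when IL-33 tumor 3, 4 or 8 was left out by itself. None of 6 germinal center and 6 T cell genes met the rule. Of 5 tested lymph node stroma genes, Ccl21a did (3.78 on the log2 scale), which turned to -3.52 without IL-33 tumor 7, the source of 93.0% of its counts, and the list summed to 239 CPM in IL-33 tumor 7 and at most 55.7 CPM elsewhere. All 8 uterus and oviduct genes and 3 of 5 epithelial genes met it upward, but none of these 11 did so without IL-33 tumor 7. Without that tumor Ovgp1 was at -0.03, Esr1 at 0.11 and Cdh1 at 0.17 on the log2 scale, Sprr2f had too few counts, and Krt18 was lower in IL-33 tumors (-2.27). The part of these tissues in the Ighv values of IL-33 tumor 7 was not tested, and the counts of Ighv members called without that tumor are given above.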

How the data were processed

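Polyadenylated RNA of 16 tumors was sequenced. For each tumor the authors deposited raw counts of reads per gene, without normalization. HISAT2, featureCounts and mm10 are named in the submitters' processing notes, without versions; the use of strand and of multi-mapping reads is not given in the sources used here. Groups and replicate numbers came from the sample titles and treatment labels. Gene identifiers were paired with symbols, coordinates and exon lengths of GENCODE M21 (GRCm38), which named 22255 of 22298 genes. CPM is the count per 1000000 counts of the tumor, and 0.5 was added before taking log2. Total counts lay between 14139268 and 24290794 per tumor, and intervals are 95% Wilson intervals for counting error. A floor of 3 counts per tumor was used where a group had none.

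Genes whose counts summed to 10 or more entered the model in edgeR 4.0.16 (R 4.3.3; TMM, glmQLFit, glmQLFTest, Benjamini-Hochberg). One value per tumor was compared by two-sided exact permutation over the tumors, and correlations by 100000 permutations (exact within groups). The formulas and the model were tested on simulated data. The genes named were the highest gene of each tumor, the 10 with the highest mean CPM, the 10 with the smallest edgeR p, and marker lists where a result turned on them. The members, the lists and the tests were chosen with earlier results of these data known. Alternatives were DESeq2 1.42.0, other scalings, filters, pseudocounts and thresholds, counts per kilobase, the replicate number as a block, and each tumor left out in turn. Same-numbered tumors did not deviate together, with correlations of -0.318 to 0.351, so that the numbers were not used to pair them.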

Additional observations from a re-analysis of the deposited data

Results flagged for a closer look

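In 21 of 63 groups of values, the highest or lowest tumor stood apart from the rest by Dixon's test at 95%. Groups held 8 tumors, or 7 for the rarefied number in vehicle tumors. The usual rate of 1 in 20 groups does not apply here. Many of the genes were named because they led a tumor, and a single count beside 7 values of 0 always stands apart. The groups are not independent, since they hold the same tumors and related genes. Vehicle tumor 4, with 7 Ighv counts, was apart in the share of its highest gene (42.9%, next 24.5%), in the chance that 2 reads fell on the same gene (19.0%, next 11.1%) and in the log2 ratio of Ighv to constant counts (-6.74, next -3.89).

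The other 18 were levels of single genes, given as log2(CPM + 0.5). Vehicle tumor 2 was the highest of its group for Ighv1-34 (1.81), Ighv1-39 (-0.11), Ighv1-55 (1.83), Ighv1-64 (2.77), Ighv1-72 (0.98), Ighv1-9 (2.15), Ighv11-2 (2.96), Ighv14-2 (1.23), Ighv14-4 (0.63), Ighv2-9 (0.38) and Ighv9-1 (-0.83). In vehicle tumor 3 it was Ighv1-15 (-0.33), Ighv1-5 (1.02), Ighv5-17 (2.97) and Ighv8-12 (2.57), and in vehicle tumor 7 Ighv5-4 (-0.84). In the IL-33 treatment group tumor 4 stood apart for Ighv2-9-1 (4.31) and tumor 8 for Ighv5-6 (0.31). For Ighv1-39, Ighv5-4 and Ighv9-1 the other 7 vehicle tumors had 0 counts.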

How the results depend on the processing

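The difference in the Ighv1 share kept its direction and stayed under 0.05 unadjusted in each alternative run. The difference in summed level ranged from 1.77 to 2.85 over the fits leaving out a single tumor and passed 0.05 without vehicle tumor 2 (2.70) or IL-33 tumor 6 (2.85); without vehicle tumor 4 and IL-33 tumor 7 together it was 1.57. The share of the highest gene changed sign among tumors with at least 100 Ighv counts (3.63 points) and without vehicle tumor 4 and IL-33 tumor 7 together (1.20 points), and ranged from -3.94 to 0.81 with single tumors left out. The chance that 2 reads fall on the same gene did so likewise (1.71 and 0.96 points, and -1.62 to 0.51). The number of members higher at unadjusted p under 0.05 was 30, but 2 of the 2 that pass filterByExpr, 11 with the replicate block, and 18 to 40 with single tumors left out. The number lower was 0 to 2 with single tumors left out and 2 without vehicle tumor 4 and IL-33 tumor 7 together. The replicate block changed no call of the 7 tests over tumors, with 15.4 points for the Ighv1 share at p = 0.0156 by exact sign flips (permutation over same-numbered pairs), and the numbers do not pair the tumors. Among named genes, signs reversed for Ighv11-2 with DESeq2 (0.95) and with single tumors left out (-2.61 to 0.87), for Ighv5-17 with DESeq2 (0.67), with the replicate block (0.33) and with single tumors left out (-2.64 to 0.61; -2.79 without vehicle tumor 4 and IL-33 tumor 7 together), for Ighv1-9 (-0.036 to 3.56) and for Ighv2-9 (-0.42 to 1.30). The causes were not tested. No member is annotated as a pseudogene, so leaving those out changed nothing. In the 6 tumors with fewer than 100 Ighv counts, shares of single genes are imprecise.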
